A study of Mus musculus with 24 samples.

Results

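Liver tumours of sorafenib-treated mice were compared early and late after a dose: 3 libraries taken at 4 h against 2 taken at 24 h and 2 taken at 48 h, which makes 7 of the 24 RNA-seq libraries of the series. All animals carried the Lap-tTA and Tet-O-MYC transgenes on the FVB/N background. In this model a tetracycline-controlled activator, driven by a promoter active in hepatocytes, switches on human MYC once doxycycline is withdrawn, and liver cancers follow. The mice came off doxycycline 4 weeks after birth. Sorafenib was given by oral gavage at 30 mg/kg per day. Times were counted from a second dose, 7 days after the first. Vehicle, a mixture of Transcutol, Solutol HS 15 and water given into the peritoneum once a week at 10 mg/kg, had 3 libraries at 24 h, so its route and schedule were not those of sorafenib. The measure was FPKM, reads scaled to gene length and to the library's total. A gene was tested if it reached 1 FPKM in at least 2 of the 7 libraries, which 11770 of 54403 entries did.

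Sorafenib is an oral inhibitor of several kinases, among them RAF kinases and the receptors for VEGF, PDGF and stem cell factor. It is a standard drug in advanced liver cancer and acts on tumour cells and on the vessels that feed them. Liver is also a strongly rhythmic tissue. Its clock genes, and many genes of feeding and fasting, go up and down over each day. If all groups were dosed at the same clock time, the samples at 24 and 48 h fall at the hour of the dose. Those at 4 h then fall 4 h later. The drug's acute action and the hour of the day can therefore not be told apart between these groups. The labels give neither the clock time of dosing, nor the feeding state, nor the time since the last daily dose.

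Promoters of genes on which the results below turn are shown first, as the 250 bases before the start site in RefSeq (GRCm38.p6), written 5′ to 3′ on the strand of the gene. Of the p53 targets with the smallest p, Cdkn1a lies at chr17:29090729-29090978 (forward strand), Ccng1 at chr11:40755287-40755536 (reverse strand), Phlda3 at chr1:135765835-135766084 (forward strand) and Btg2 at chr1:134079156-134079405 (reverse strand). In these 4, capitals mark matches to the p53 decamer, the motif of which a full p53 site has a pair.
Cdkn1a: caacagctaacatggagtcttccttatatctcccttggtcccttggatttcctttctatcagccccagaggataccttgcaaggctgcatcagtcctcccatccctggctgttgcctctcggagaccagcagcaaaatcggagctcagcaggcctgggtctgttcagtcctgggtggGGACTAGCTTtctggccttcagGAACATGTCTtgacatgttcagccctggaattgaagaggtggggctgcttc
Ccng1: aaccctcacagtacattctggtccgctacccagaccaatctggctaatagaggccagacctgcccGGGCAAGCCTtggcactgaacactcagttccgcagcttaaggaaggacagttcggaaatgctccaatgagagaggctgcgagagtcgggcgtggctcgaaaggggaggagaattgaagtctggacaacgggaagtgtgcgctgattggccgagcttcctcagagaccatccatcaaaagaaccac
Phlda3: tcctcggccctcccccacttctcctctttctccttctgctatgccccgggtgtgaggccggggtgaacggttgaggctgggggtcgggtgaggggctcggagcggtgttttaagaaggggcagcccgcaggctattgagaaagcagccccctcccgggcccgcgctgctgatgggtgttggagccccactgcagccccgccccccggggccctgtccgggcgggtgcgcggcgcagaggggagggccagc
Btg2: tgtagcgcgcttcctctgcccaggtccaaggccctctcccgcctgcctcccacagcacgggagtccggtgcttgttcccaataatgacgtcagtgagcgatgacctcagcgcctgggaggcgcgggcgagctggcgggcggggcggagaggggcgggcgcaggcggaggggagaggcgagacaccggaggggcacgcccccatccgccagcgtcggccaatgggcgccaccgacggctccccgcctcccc
Slc16a3 and Egln1 stand for glycolysis and hypoxia, at chr11:120948817-120949066 (forward strand) and chr8:124949255-124949504 (reverse strand). Capitals mark ACGTG, the core of the element that hypoxia-inducible factors bind.
Slc16a3: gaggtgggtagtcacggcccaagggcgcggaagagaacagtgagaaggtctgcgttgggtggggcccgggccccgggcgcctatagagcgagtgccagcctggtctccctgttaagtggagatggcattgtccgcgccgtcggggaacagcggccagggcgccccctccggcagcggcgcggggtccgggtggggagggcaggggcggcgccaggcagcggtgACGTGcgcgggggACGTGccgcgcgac
Egln1: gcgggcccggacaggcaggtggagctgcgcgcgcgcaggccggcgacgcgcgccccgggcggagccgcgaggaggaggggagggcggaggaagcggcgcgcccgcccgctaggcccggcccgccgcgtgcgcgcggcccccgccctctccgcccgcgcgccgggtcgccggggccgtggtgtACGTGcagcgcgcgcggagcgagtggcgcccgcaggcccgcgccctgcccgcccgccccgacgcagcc
Ciart and Bhlhe41 stand for the clock, at chr3:95882229-95882478 (reverse strand) and chr6:145865421-145865670 (reverse strand). Capitals mark CACGTG, the E-box that CLOCK and its partner BMAL1 bind and that other factors, MYC among them, bind too.
Ciart: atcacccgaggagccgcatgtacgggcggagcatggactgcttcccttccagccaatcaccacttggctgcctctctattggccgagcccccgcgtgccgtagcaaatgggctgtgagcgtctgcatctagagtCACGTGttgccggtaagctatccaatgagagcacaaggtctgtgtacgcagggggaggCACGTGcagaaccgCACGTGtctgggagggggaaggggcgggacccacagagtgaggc
Bhlhe41: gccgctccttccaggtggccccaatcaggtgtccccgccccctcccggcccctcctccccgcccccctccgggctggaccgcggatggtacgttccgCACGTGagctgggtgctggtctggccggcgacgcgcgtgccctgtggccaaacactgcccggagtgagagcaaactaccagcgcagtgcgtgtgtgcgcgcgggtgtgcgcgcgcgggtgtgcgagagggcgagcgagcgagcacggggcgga
Both strands were searched, and for a gene with several starts the window with most matches was taken. Cdkn1a had 2 decamers, which together form 1 full site with a spacer of up to 13 bases. Ccng1 had 1 decamer, and none was found in the windows of Phlda3 and Btg2. Among all 32851 promoter windows of the table, 7.13% held a p53 decamer, 0.0639% a full site, 6.02% CACGTG and 16.6% ACGTG. Every CACGTG also holds ACGTG. By gene symbol, which lets a gene count through any of its starts, a decamer was found for 7 of 15 matched p53 targets and for 8.20% of 27025 symbols. ACGTG was found for 10 of 13 matched hypoxia genes and 7 of 17 glycolysis genes, against 18.5% of symbols. CACGTG was found for 5 of 12 matched clock genes, against 6.86% of symbols. The motifs were not particular to those lists. ACGTG was also found for 6 of 15 p53 targets and 8 of 12 clock genes. CACGTG was also found for 5 of 15 p53 targets, 2 of 13 hypoxia genes and 2 of 17 glycolysis genes. A decamer was found for 0 of 13 hypoxia genes, 1 of 17 glycolysis genes and 0 of 12 clock genes. The symbols are not limited to the genes tested. These are matches of letters in short windows.

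The labelled tissue was checked against markers. Afp, the fetal albumin relative that marks hepatoblasts and liver cancer, ranged from 984 to 2203 FPKM at 4 h and from 1380 to 2114 late. The summed markers of its list leaned lower early with some overlap, at 6738 to 8765 FPKM early and 8495 to 11520 late. The median difference of its 6 tested genes was -0.37, against 0.03 over all genes. It was -0.61 to -0.24 with each library left out in turn. Summed hepatocyte markers overlapped, at 3268 to 8887 FPKM early and 3224 to 7110 late, as did those of macrophages (709 to 1163 and 774 to 1233), endothelium (20.3 to 28.5 and 21.3 to 24.3), fibroblasts (32.3 to 54.9 and 31.9 to 62.6), T and NK cells (5.82 to 8.59 and 4.33 to 9.66) and red cells (77.7 to 103 and 91.0 to 443). All 7 libraries were under 0.1 FPKM for single markers that include Cftr, Sctr, Ly6g, Mpo, Klrb1c and Ms4a1. The lists these belong to were not silent as a whole. Summed cholangiocyte markers ran from 12.32 to 45.96 FPKM early and 11.09 to 37.91 late. Summed neutrophil markers ran from 1.309 to 4.222 FPKM early and 1.33 to 4.804 late. For B and plasma cells the sums were 1.944 to 3.002 FPKM early and 2.679 to 4.891 late. Albumin stood apart in 2 libraries, the third at 4 h (3545 FPKM) and the first at 48 h (2966), against 866 to 1362 in the others. The same 2 libraries lay together on the second principal component, which carried 27.6% of the variance. Depth was 32.9 to 34.9 M reads at 4 h and 35.2 to 41.7 M reads late, with no overlap. The 4 h libraries carried the description codes Cg11 and Cg12 and the late ones Cg9 and Cg10, so code and time cannot be told apart. In bulk tissue, fewer cells of a type and less RNA per cell cannot be told apart either. The part of depth and code in the results was not tested. Counts without the 2 libraries high in albumin are given where a list is described by its count.

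At the threshold of an adjusted p under 0.05 (limma, Benjamini-Hochberg over all genes), 3 of 11770 entries, 0.0255%, differed between 4 h and the later times: Hmga1b and Kctd15 were lower at 4 h and Gm3788 was higher, so 0.0085% of entries were called higher and 0.017% lower. Many more genes leaned without passing. An unadjusted p under 0.05 was reached by 2034 genes, 17.3%, of which 1166 (9.91%) were higher and 868 (7.37%) lower at 4 h. The 3 and 4 libraries did not overlap for 1763 genes, 15%, with 1005 (8.54%) higher and 758 (6.44%) lower. The balance between higher and lower depended on scaling: 57.3% of the genes with an unadjusted p under 0.05 were higher at 4 h as deposited, 47.1% after median-ratio scaling and 44.8% after quantile normalization. The number of calls turned on single libraries. It was 27 without the second 48 h library, 10 without the third 4 h library, and 1 without the first 4 h library or without any of the other 3 late ones in turn. The share of all genes with an unadjusted p under 0.05 moved too. Without the second 48 h library 13.4% were higher at 4 h and 9.52% lower. Without any other library in turn, 6.05 to 9.67% were higher and 4.89 to 8.49% lower. Without the 2 libraries high in albumin it was 6.42% and 6.64%. List counts below with libraries left out should be read beside these shares. Between 24 and 48 h themselves, 0 genes passed (limma), and 598, 5.08%, had an unadjusted p under 0.05.

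Hmga1b was nearly absent at 4 h. It stood at 3.24, 2.12 and 3.26 FPKM at 4 h, 277 and 161 at 24 h and 281 and 173 at 48 h, and at 138, 205 and 162 in vehicle. The 4 h libraries were far below all others, a difference of -5.82 ± 0.23 (SE), adjusted p = 7.25e-05, on the scale of log2(FPKM + 1), on which every difference below is given. Hmga1b is listed as a protein-coding copy of Hmga1, the gene of a chromatin protein that binds AT-rich DNA and is often abundant in cancer. Its transcript (Hmga1b-201, chromosome 11) is 99.8% identical to Hmga1-216 (chromosome 17) over 1602 bases, with 3 mismatches and 0 gaps. Counted from the 5′ end of Hmga1-216, with the Hmga1 base first, the mismatches are A736G, A863G and G1325T, all in the 3′ UTR of Hmga1. Reads of such copies are easily assigned to either, so both entries are uncertain one by one.

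Hmga1 itself leaned the opposite way without passing the threshold. It stood at 433, 362 and 358 FPKM at 4 h, 112 and 249 at 24 h and 105 and 259 at 48 h, and the groups did not overlap (1.20 ± 0.34 (SE), adjusted p = 0.209). The sum of both entries was 436, 364 and 361 FPKM at 4 h, 389 and 411 at 24 h and 386 and 432 at 48 h, and the summed entry differed by -0.07 (adjusted p = 0.737). The share of Hmga1b in the sum fell into 3 separate ranges over the 20 libraries whose values show single-read steps: 0.336 to 0.904% in 8 libraries, 39.3 to 47.2% in 9 and 71.2 to 76.6% in 3. All 3 sorafenib libraries at 4 h were in the lowest range, while those at 24 h had 71.2 and 39.3% and those at 48 h 72.8 and 40.0%. Vehicle had 42.2, 39.5 and 43.7%. Libraries of 1 treatment and time fell into different ranges elsewhere too: those of RMC-6272, an mTOR complex 1 inhibitor, had 42.0, 0.652 and 43.3% at 24 h, 0.703, 0.611 and 40.4% at 48 h, and 0.562, 47.2 and 76.6% at 72 h. In fits of all 24 libraries, where these groups enter the spread, the adjusted p of Hmga1b was 0.792. By description code, every Cg11 and Cg12 library was in the lowest range. These were the 3 sorafenib libraries at 4 h and the RMC-6272 libraries at 48 h with 0.703 and 0.611%. Every library of the highest range carried Cg9, and a further Cg9 library had 39.3%. Libraries of code Cg14 had 0.652, 43.3, 40.4 and 0.562%. The part of the code was not tested.

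**Figure D1:**
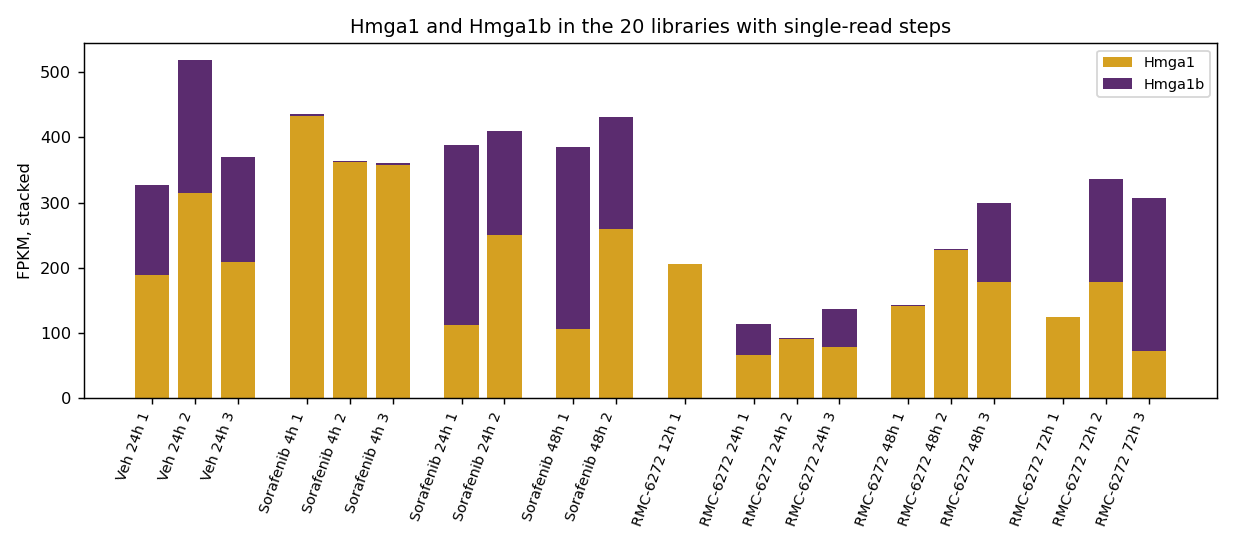
Stacked FPKM of Hmga1 (gold) and its near-identical copy Hmga1b (purple) in each of the 20 libraries with single-read steps, ordered by treatment and time (Veh is vehicle). The Hmga1b part is nearly absent in the 3 sorafenib libraries at 4 h, where the sum is 361 to 436, and also in 5 RMC-6272 libraries.

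Kctd15, which encodes a BTB-domain protein known for restraining neural crest formation, was lower at 4 h. It stood at 0.632, 0.887 and 0.7595 FPKM at 4 h, 2.92 and 2.81 at 24 h and 2.34 and 2.87 at 48 h, and at 3.6, 2.95 and 2.602 in vehicle. Each 4 h library was below 1 FPKM and each of the others above 2. The difference passed against the later times (-1.09 ± 0.10 (SE), adjusted p = 0.0193) and against vehicle (-1.20 ± 0.12, adjusted p = 0.00885). Its closest other transcript, Kctd1-201, is 74.1% identical over 762 bases. Both calls concern the same 3 early libraries. With the 4 h libraries set against 24 h or 48 h alone its adjusted p was 0.0994 and 0.188. It was also not called with 1 library fewer in 5 of 7 cases: without the first or second 4 h library (0.147 and 0.0890), either 24 h library (0.146 and 0.113) or the first 48 h library (0.0581), nor in the fit of all 24 libraries (0.1165). Against vehicle its adjusted p was 0.0779 without the first 4 h library.

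Gm3788 is a processed pseudogene of Tmsb10, the gene of thymosin beta 10, a small protein that binds actin monomers. It stood at 92.4, 73.4 and 90.5 FPKM at 4 h, 34.3 and 40.9 at 24 h and 36.4 and 37.95 at 48 h, with 30.6, 72.6 and 60.1 in vehicle (1.17 ± 0.11 (SE), adjusted p = 0.0193). All early libraries were above all late ones, while the vehicle libraries spread across the gap between them. Gm3788 is 99.3% identical to Tmsb10-201 over its 136 bases, so its reads cannot be separated well from those of Tmsb10. Tmsb10-201 in turn is 99.3% identical over 454 bases to Gm9844-201, a copy listed as protein-coding. The Tmsb10 entry is therefore uncertain too. Tmsb10 stood at 445, 419 and 374 FPKM at 4 h, 202 and 216 at 24 h and 173 and 239 at 48 h, without overlap, and did not pass (0.99 ± 0.12 (SE), adjusted p = 0.0701). In vehicle it ranged from 168 to 480 FPKM, wider than in the 7 sorafenib libraries. Gm3788 was not called without the first 4 h library (adjusted p = 0.147), the first or second 24 h library (0.141 and 0.0830) or the first 48 h library (0.0889), nor without the 2 libraries high in albumin (0.0771). With 24 h or 48 h alone as the later time its adjusted p was 0.104 and 0.188, and in the fits of all 24 libraries it was 1, or 0.9997 with the description code as a block. Kctd15 and Gm3788 lie outside the rule for named genes and are named because they passed.

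Targets of p53 stood higher at 4 h than later almost as a whole list. p53 is the transcription factor that answers DNA damage and other stress by halting the cell cycle and inducing cell death genes. Of 20 targets, all tested, 18 were higher at 4 h with an unadjusted p under 0.05 and 0 were lower, against 9.91% and 7.37% of all genes. For 13 of them the groups did not overlap. The median difference was 0.62, against 0.03 over all genes tested. None passed the adjusted threshold. The count was 16 to 18 with each library left out in turn, 15 without the 2 libraries high in albumin, and 17 and 16 under median-ratio scaling and quantile normalization. With the spread taken from all 24 libraries it was 7, where 0.901% of all genes were higher. In that fit the counts of the other stress lists described below were 0 of 21 for heat shock, 0 of 26 for immediate early genes, 1 of 28 for ATF4 targets, 1 of 16 for hypoxia and 2 of 18 for glycolysis. The fit includes the doxycycline and RMC-4627 libraries. Only 3.57 to 5.23% of their low values came out as whole reads, against 98.2 to 98.7% in the other 20 libraries.

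Cdkn1a, which encodes the cell cycle inhibitor p21 and has the decamers shown above, stood at 67.3, 61.1 and 47.2 FPKM at 4 h, 23.3 and 25.3 at 24 h and 17.9 and 32.3 at 48 h. The 3 early libraries were all above the 4 late ones (1.23 ± 0.20 (SE), adjusted p = 0.1495). Vehicle, at 36.1, 45.3 and 28.8 FPKM, was below the early libraries and overlapped with the late ones. Phlda3, a p53-induced inhibitor of AKT at the membrane, stood at 20.49, 23.8 and 17.2 FPKM at 4 h, 6.79 and 10.8 at 24 h and 8.04 and 10.4 at 48 h (1.11 ± 0.17 (SE), adjusted p = 0.135). One vehicle library reached the early level, at 22.7 FPKM, and the other 2 were at the late level, 10.6 and 10.8. Ccng1, the gene of cyclin G1, stood at 46, 53.1 and 43.2 FPKM at 4 h, 28.6 and 29.3 at 24 h and 24.9 and 35.7 at 48 h, and vehicle at 45.3, 40.5 and 37.1. Here the vehicle values overlapped with the early ones and lay above all the late ones. Btg2, an antiproliferative gene that is also an immediate early gene, stood at 13.2, 15.6 and 12.5 FPKM at 4 h, 6.46 and 8.86 at 24 h and 8.39 and 9.84 at 48 h (0.66 ± 0.14 (SE), adjusted p = 0.192), with vehicle at 11.6, 10.8 and 9.83. The early libraries were above vehicle, and vehicle overlapped with the late ones.

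The cell death genes of the list leaned the same way. Bbc3, which encodes PUMA, a protein that sets off mitochondrial apoptosis, stood at 63.2, 45.4 and 47.2 FPKM at 4 h, 25.2 and 35.7 at 24 h and 24.9 and 32.9 at 48 h, and Bax, the pore former it acts through, at 111, 93.6 and 111 FPKM at 4 h, 59.8 and 81.8 at 24 h and 60.2 and 79.2 at 48 h. Both were without overlap, with differences of 0.79 and 0.59 (adjusted p = 0.192 and 0.197). Eda2r, a death receptor relative in the TNF receptor family, stood at 3.95, 2.39 and 2.33 FPKM at 4 h, 0.676 and 1.37 at 24 h and 0.0981 and 0.273 at 48 h, against 0.371, 0.4204 and 0.129 in vehicle. Its early libraries were clear of vehicle as well as of the late ones. Sesn1, which encodes sestrin 1, was the one target of the 20 with a negative difference, at 6.56, 5.503 and 5.68 FPKM at 4 h, 7.09 and 7.16 at 24 h and 7.83 and 6.01 at 48 h, and its groups overlapped (-0.21 ± 0.10 (SE), adjusted p = 0.311). Against vehicle, the list's median difference was 0.11 for 4 h and -0.35 for the late libraries, beside 0.02 and 0.00 over all genes. At 4 h 3 of the 20, Cdkn1a, Btg2 and Eda2r, were above every vehicle library, and late 6 were below every one, where 4.21% and 6.65% of all genes were. Both comparisons share the vehicle libraries.

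**Figure D2:**
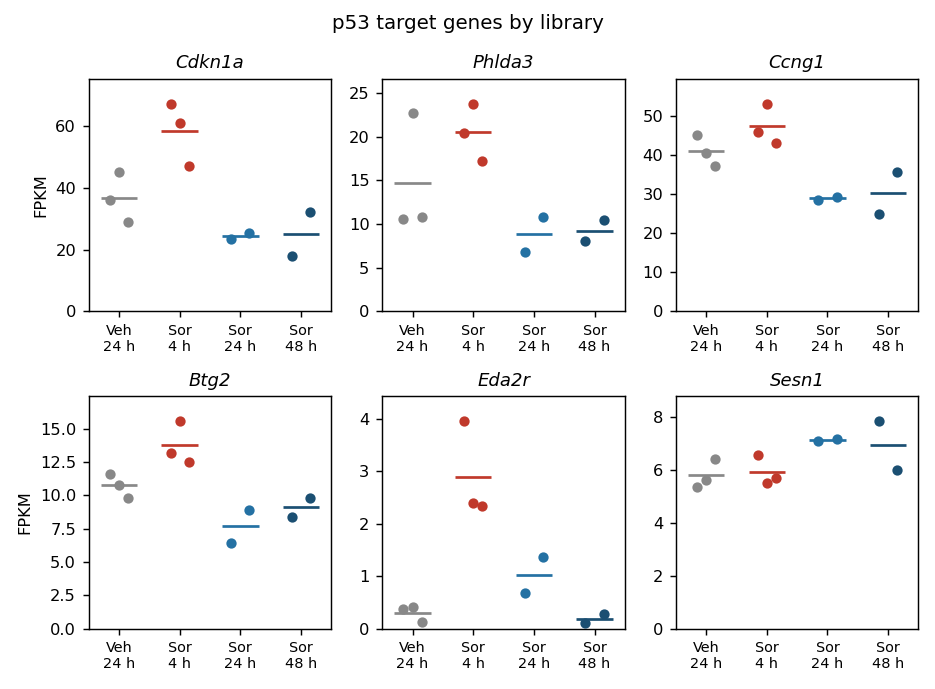
FPKM of 6 p53 targets in each library (points) with the group mean (line), for vehicle at 24 h and sorafenib (Sor) at 4, 24 and 48 h. In all but Sesn1 the 3 libraries at 4 h lie above the 4 late ones, and vehicle overlaps with one or both.

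Glycolysis and hypoxia genes also stood higher at 4 h. Glycolysis turns glucose into pyruvate, and hypoxia-inducible factors raise several of its enzymes when oxygen is short. Of 18 tested glycolysis genes, 13 were higher at 4 h with an unadjusted p under 0.05 and 0 lower, with no overlap for 9 and a median difference of 0.35. Of 16 tested hypoxia genes, 9 were higher and 0 lower, with no overlap for 6 and a median of 0.40. Over all genes, 9.91% were higher, 7.37% lower and 8.54% higher without overlap. Hk2 is in both lists. None of either list passed the adjusted threshold. The glycolysis count was 4 without the first 4 h library, 8 without the first 48 h library, 7 without the 2 libraries high in albumin, 9 to 13 without any of the others in turn, and 6 under quantile normalization. The hypoxia count was 7 to 12 over the single libraries left out and 11 without those 2.

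Slc16a3, the gene of the lactate exporter MCT4, stood at 54.3, 49.7 and 32.2 FPKM at 4 h, 18.5 and 17.3 at 24 h and 19.5 and 18.1 at 48 h. Every early library was above every late one (1.23 ± 0.17 (SE), adjusted p = 0.105). Its adjusted p was 0.00332 without the third 4 h library. The 3 vehicle libraries ran from 6.19 to 61.2 FPKM, a wider range than that of all 7 sorafenib libraries. Aldoa, the main aldolase of tumour glycolysis, stood at 565, 472 and 476 FPKM at 4 h, 333 and 328 at 24 h and 262 and 389 at 48 h, without overlap (0.63 ± 0.14 (SE), adjusted p = 0.197). Pfkp, the platelet form of phosphofructokinase, stood at 14.5, 9.07 and 7.998 FPKM at 4 h, 5.78 and 5.61 at 24 h and 4.52 and 6.66 at 48 h (0.76 ± 0.19 (SE), adjusted p = 0.1998). Hk1, a hexokinase that the adult hepatocyte makes little of, stood at 2.47, 3.64 and 1.66 FPKM at 4 h, 0.777 and 0.725 at 24 h and 0.7301 and 1.42 at 48 h. The second 48 h library was the high one among its late values. Ldhb, a lactate dehydrogenase, had a difference of -0.13, with overlap (adjusted p = 0.775).

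Egln1 and Egln3 encode prolyl hydroxylases that mark hypoxia-inducible factors for breakdown and are themselves induced by them. Egln1 stood at 30.6, 25.6 and 27.1 FPKM at 4 h, 19.5 and 17.9 at 24 h and 16.6 and 20.2 at 48 h, without overlap (0.56 ± 0.10 (SE), adjusted p = 0.162). Egln3 stood at 43.8, 32.7 and 32.96 FPKM at 4 h, 26.5 and 18.99 at 24 h and 20.9 and 28.2 at 48 h, with 24.1, 21.99 and 20.7 in vehicle, so that its early libraries were above vehicle too. P4ha1, a collagen prolyl hydroxylase, and Higd1a, a mitochondrial protein of low oxygen, had differences of 0.57 and 0.61 (adjusted p = 0.202 and 0.1998). Vegfa, the ligand of the VEGF receptors that sorafenib blocks, stood at 8.295, 7.51 and 8.21 FPKM at 4 h, 6.202 and 5.46 at 24 h and 7.93 and 7.19 at 48 h, and its groups overlapped (0.24 ± 0.12 (SE), adjusted p = 0.331). Against vehicle, the medians were 0.27 for hypoxia genes and 0.22 for glycolysis genes at 4 h, and -0.08 and -0.19 late.

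Chaperones, immediate early genes and targets of ATF4 also stood higher early than late in part. Of 21 heat shock genes, 10 were higher at 4 h with an unadjusted p under 0.05 and 0 lower, against 9.91% and 7.37% of all genes. Their median was 0.32. The count was 6 without the third 4 h library, 15 without the second 48 h library, 7 to 12 without any of the others in turn and 4 without the 2 libraries high in albumin. The 10 included both cytosolic HSP90 genes, Hsp90aa1 and Hsp90ab1. Stip1, the cochaperone that links HSP70 and HSP90, stood at 253, 221 and 267 FPKM at 4 h, 169.7 and 173 at 24 h and 146 and 202 at 48 h, without overlap (0.52 ± 0.12 (SE), adjusted p = 0.197). The differences of Ahsa1, which activates HSP90, and Hsp90aa1 were 0.42 and 0.44 (adjusted p = 0.209 and 0.209). The strongly inducible HSP70 gene Hspa1a is outside the rule for named genes, had a difference of -0.49 and overlapped between groups (adjusted p = 0.353). Against vehicle, the median of the heat shock list was 0.07 at 4 h and -0.22 late, beside 0.02 and -0.004 over all genes.

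Immediate early genes switch on within minutes of a growth or stress signal without new protein synthesis. Of 26 tested, 11 were higher at 4 h with an unadjusted p under 0.05 and 1 lower, against 9.91% and 7.37% of all genes. Their median was 0.30. The count higher was 8 to 14 over the libraries left out in turn and 15 without the 2 libraries high in albumin. Junb, a subunit of AP-1, stood at 37.4, 31.7 and 26.5 FPKM at 4 h, 19.02 and 20.01 at 24 h and 19.9 and 20.1 at 48 h. Its late libraries lay close together and below all early ones (0.65 ± 0.11 (SE), adjusted p = 0.162). Ier5 and Ier5l, a pair of related early response genes, differed by 0.59 and 0.64 (adjusted p = 0.192 and 0.167). Egr1, a classical target of ERK signalling, was the member lower at 4 h, at 1.303, 1.84 and 1.56 FPKM at 4 h, 2.27 and 1.78 at 24 h and 3.08 and 2.17 at 48 h, with overlap (-0.36 ± 0.14 (SE), adjusted p = 0.257). In vehicle it was above all 7 sorafenib libraries, at 3.197, 3.48 and 3.43. Against vehicle, the median of the immediate early list was 0.03 at 4 h and -0.34 late.

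ATF4 is the factor that the integrated stress response brings up when translation is held back. Of 28 tested targets, 9 were higher at 4 h with an unadjusted p under 0.05 and 1 lower, against 9.91% and 7.37% of all genes. Their median was 0.22. The count higher was 7 to 12 over the libraries left out in turn. It was 8, with 2 lower, without the 2 libraries high in albumin. Against vehicle, the median of the list was 0.07 at 4 h and -0.13 late. Sesn2, which encodes sestrin 2, an inhibitor of mTOR complex 1 under amino acid shortage, stood at 15.3, 15.5 and 12.97 FPKM at 4 h, 7.81 and 10.3 at 24 h and 7.89 and 9.37 at 48 h. Early and late did not overlap (0.67 ± 0.11 (SE), adjusted p = 0.162), and vehicle lay between, reaching into the early range, at 11.5, 13.5 and 11.2. Ddit4, which encodes REDD1, another inhibitor of mTOR complex 1, stood at 47.2, 41.4 and 35.3 FPKM at 4 h, 28.9 and 23.3 at 24 h and 17.95 and 25.5 at 48 h (0.77 ± 0.16 (SE), adjusted p = 0.192). Vehicle, at 14.96, 26.2 and 21.1, lay with the late libraries. Ddit3, the gene of CHOP, and Ppp1r15a, the gene of GADD34, differed by 0.38 and 0.69 (adjusted p = 0.197 and 0.192). Sestrin 2, REDD1 and GADD34 answer other stresses than ATF4 as well. Of 23 genes of the unfolded protein response, 0 were higher and 2 were lower with an unadjusted p under 0.05. Among all genes it was 9.91% and 7.37%. The number lower was 9 without the third 4 h library, 7 without the 2 libraries high in albumin and 1 or 2 without any of the other 6 libraries in turn.

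**Figure D3:**
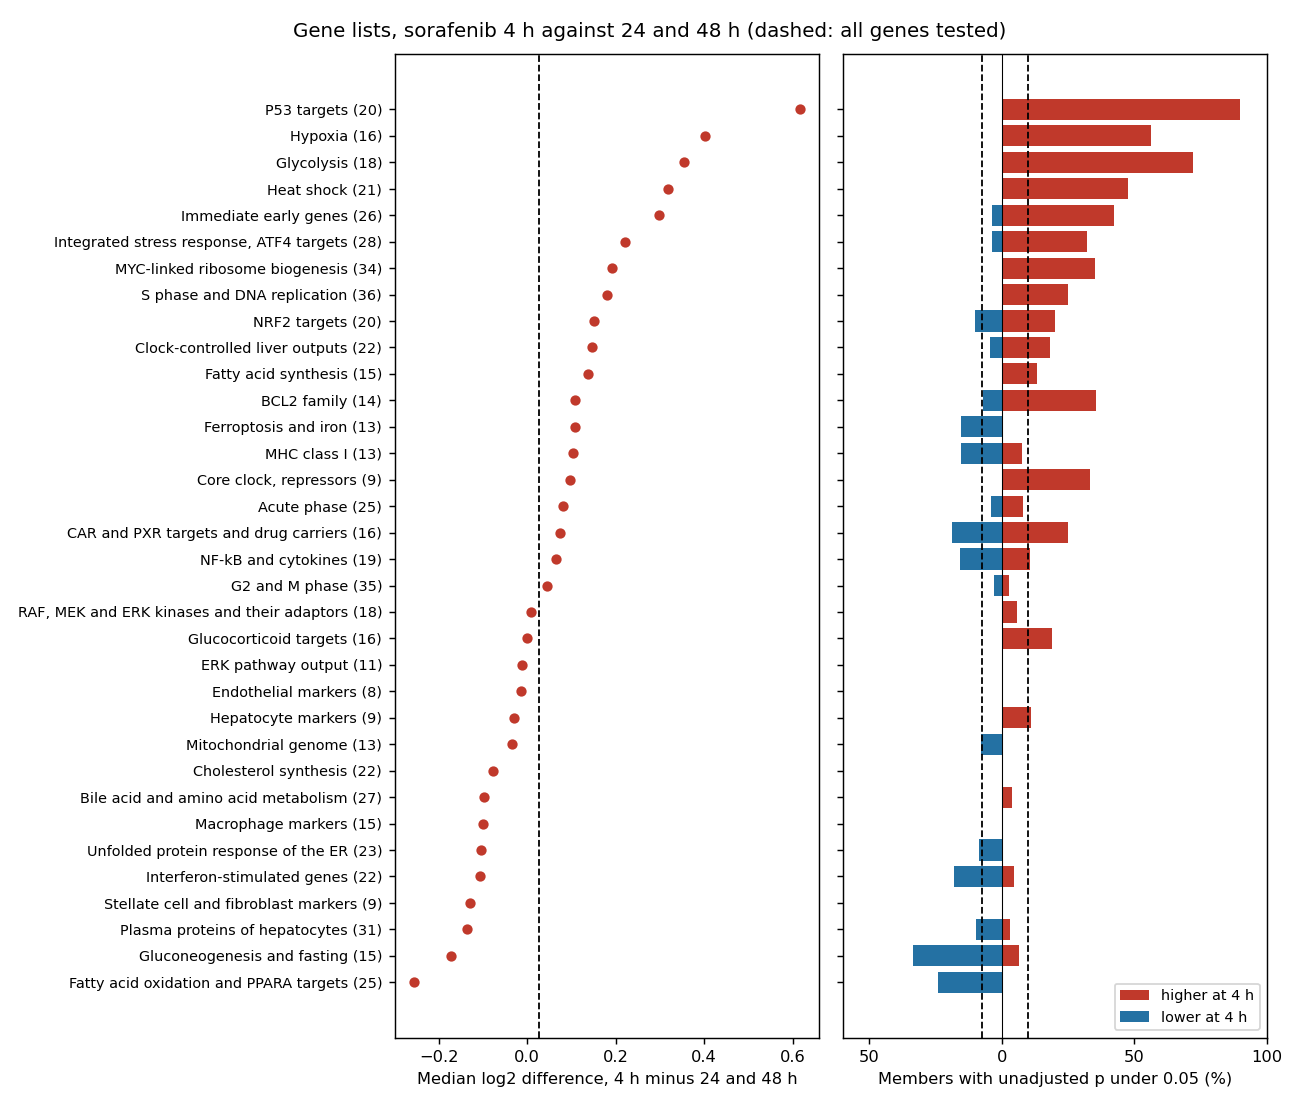
Gene lists with at least 8 tested members (number in brackets), ordered by the median log2 difference of 4 h minus 24 and 48 h (left) and with the percentage of members that had an unadjusted p under 0.05 (right; red higher, blue lower at 4 h). Dashed lines give all 11770 genes tested, and p53 targets stand at the top with a median of 0.62 and 18 of 20 members higher.

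Transcripts that report ERK activity gave no such count. ERK, at the end of the cascade from RAF through MEK, induces its own phosphatases and feedback inhibitors. Of 11 tested genes of ERK output, 0 had an unadjusted p under 0.05 in either direction and every one overlapped between groups (limma), with a median of -0.01. Over all genes 17.3% had such a p. With libraries left out, 1 gene was higher without the first 4 h or the first 48 h library, 1 was lower without the first 24 h library, and 0 were either without the 2 libraries high in albumin. Dusp6, a phosphatase for ERK, stood at 3.07, 4.41 and 3.78 FPKM at 4 h, 3.69 and 4.14 at 24 h and 5.57 and 3.91 at 48 h (-0.16 ± 0.14 (SE), adjusted p = 0.569). Vehicle had 4.76, 4.23 and 3.74 FPKM. Among the other phosphatases, Dusp5 and Dusp7 differed by 0.24 and 0.13. Among the feedback inhibitors, Spry1 and Spred2 differed by -0.04 and -0.13. Ccnd1, the gene of cyclin D1, differed by -0.37, Plaur by 0.42, Phlda1 by -0.13, Epha2 by 0.04, Ier3 by 0.03 and Hbegf, a ligand of the EGF receptor, by -0.01. Their adjusted p ran from 0.306 to 0.970. The 95% interval for Dusp6 ran from -0.49 to 0.17.

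The kinases and their ligands showed few differences. Of 18 genes of RAF, MEK, ERK and their adaptors, 1 was higher with an unadjusted p under 0.05, against 9.91% of all genes. Their median was 0.01, and 0 of the 18 were higher without the 2 libraries high in albumin. Without the second 48 h library 2 were higher and 2 lower. Of the receptor kinases that sorafenib binds, Kit, Pdgfrb, Csf1r and Fgfr1 were tested, with differences of 0.29, -0.17, -0.07 and -0.02. Kdr, Flt1, Flt4, Pdgfra, Flt3 and Ret did not reach 1 FPKM in 2 of the 7 libraries. Among the ligands, Pdgfa stood at 5.96, 5.27 and 6.28 FPKM at 4 h, 4.22 and 3.71 at 24 h and 4.76 and 4.26 at 48 h (0.38 ± 0.09 (SE), adjusted p = 0.197) and Pdgfb at 4.87, 4.301 and 4.43 FPKM at 4 h, 5.16 and 5.097 at 24 h and 5.07 and 5.58 at 48 h (-0.17 ± 0.07 (SE), adjusted p = 0.281). The 2 forms of PDGF thus leaned in opposite directions.

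Clock genes were examined for the hour of the day. In the liver clock, CLOCK and BMAL1 (Arntl) drive the period, cryptochrome and REV-ERB genes, whose proteins then repress them, and the PAR bZIP factor DBP follows in phase. Of the 3 activators only Clock reached the filter, at 1.23, 1.53 and 1.08 FPKM at 4 h, 1.41 and 1.2 at 24 h and 1.23 and 1.25 at 48 h, and its groups overlapped (-0.00 ± 0.11 (SE), adjusted p = 0.996). Arntl ranged from 0.332 to 0.773 FPKM early and 0.287 to 0.397 late, below the filter, as were Npas2, Per3 and Rora. Of 9 tested repressors, 3 were higher at 4 h with an unadjusted p under 0.05 and 0 lower, against 9.91% and 7.37% of all genes. Their median was 0.10. The number higher was 1 without the first 4 h library or either 24 h library, 2 or 3 without any of the others in turn, and 2 without the 2 libraries high in albumin. Of the 5 tested ROR and PAR bZIP genes, 1 was higher and 2 were lower, also without those 2, and 1 was lower without the second 4 h, the first 24 h or either 48 h library. No clock gene passed the adjusted threshold.

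Bhlhe41, the repressor DEC2, stood at 1.26, 1.76 and 0.625 FPKM at 4 h, 0.322 and 0.311 at 24 h and 0.329 and 0.504 at 48 h. The early libraries were above all late ones at low levels, and the second 48 h library was the highest of the late (0.67 ± 0.19 (SE), adjusted p = 0.209). With a pseudocount of 0.1 in place of 1 the difference was 1.41. Ciart, which encodes a repressor of CLOCK and BMAL1 and has 3 E-boxes in the window shown, stood at 2.53, 1.84 and 2.07 FPKM at 4 h, 1.397 and 1.17 at 24 h and 1.69 and 1.83 at 48 h. Its early libraries, at 1.84 FPKM and more, were only just clear of the highest late one (0.32 ± 0.13 (SE), adjusted p = 0.259). Per2 stood at 3.75, 4.11 and 3.57 FPKM at 4 h, 3.05 and 3.05 at 24 h and 3.58 and 2.95 at 48 h (0.21 ± 0.08 (SE), adjusted p = 0.263), where 1 late library reached the early level. Per1, which also answers glucocorticoids, stood at 8.61, 6.88 and 8.204 FPKM at 4 h, 9.56 and 6.38 at 24 h and 6.499 and 7.53 at 48 h and overlapped (0.08 ± 0.14 (SE), adjusted p = 0.791). Both sorafenib groups stood above vehicle for Per1, at 5.16, 5.17 and 4.65. Nr1d1, the gene of REV-ERB alpha, stood at 6.22, 4.74 and 4.59 FPKM at 4 h, 3.597 and 3.75 at 24 h and 4.82 and 4.899 at 48 h and overlapped (0.23 ± 0.13 (SE), adjusted p = 0.391).

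Dbp and Nfil3 act on the same DNA sites in opposite ways, DBP as activator and NFIL3 as repressor. Dbp stood at 3.05, 2.77 and 2.997 FPKM at 4 h, 3.698 and 4.07 at 24 h and 5.94 and 4.92 at 48 h, lower early without overlap (-0.51 ± 0.13 (SE), adjusted p = 0.202). Nfil3 stood at 29.1, 26.8 and 21.6 FPKM at 4 h, 17.5 and 15.3 at 24 h and 15.9 and 18.9 at 48 h, higher early without overlap (0.58 ± 0.12 (SE), adjusted p = 0.192). Neither passed the threshold. Hlf, another PAR bZIP gene, differed by -0.37 (adjusted p = 0.255) and Tef by 0.01. The remaining repressors were close to level, with 0.09 for Cry1, -0.13 for Cry2, -0.13 for Nr1d2 and 0.10 for Bhlhe40. In vehicle, taken at the same hour after dosing as the 24 h group, Dbp stood at 4.99, 3.901 and 2.86 and Nr1d1 at 7.13, 6.67 and 4.95, so that Dbp in vehicle spanned the gap between early and late, while Nr1d1 overlapped with the early libraries and was just above the late ones.

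Among 22 tested clock-controlled outputs of the liver, 4 were higher and 1 lower at 4 h with an unadjusted p under 0.05. Over all genes it was 9.91% and 7.37%. The median of the outputs was 0.15. The number higher was 1 without the first 4 h, the second 24 h or the first 48 h library, 2 without the third 4 h or the first 24 h library, 5 without either of the other 2, and 1 without the 2 libraries high in albumin. Cirbp, a cold-inducible RNA-binding protein whose transcript follows body temperature, stood at 5.11, 5.52 and 4.69 FPKM at 4 h, 8.84 and 8.398 at 24 h and 8.18 and 7.85 at 48 h. Early libraries were below all late ones (-0.61 ± 0.08 (SE), adjusted p = 0.0701), and its adjusted p was 0.0489 without the second 48 h library. Vehicle lay between or with the late libraries, at 6.38, 8.51 and 6.18. Noct, the rhythmic gene of nocturnin, differed by 0.51 (adjusted p = 0.197). Of 16 glucocorticoid targets, which follow the daily rhythm of corticosterone, 3 were higher and 0 lower with an unadjusted p under 0.05. The number higher was 1 without the first 4 h, the second 24 h or the second 48 h library, 2 without the third 4 h or the first 48 h library, and 3 (1 lower) without the 2 libraries high in albumin. Tsc22d3, which encodes GILZ, differed by 0.24 (adjusted p = 0.282).

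**Figure D4:**
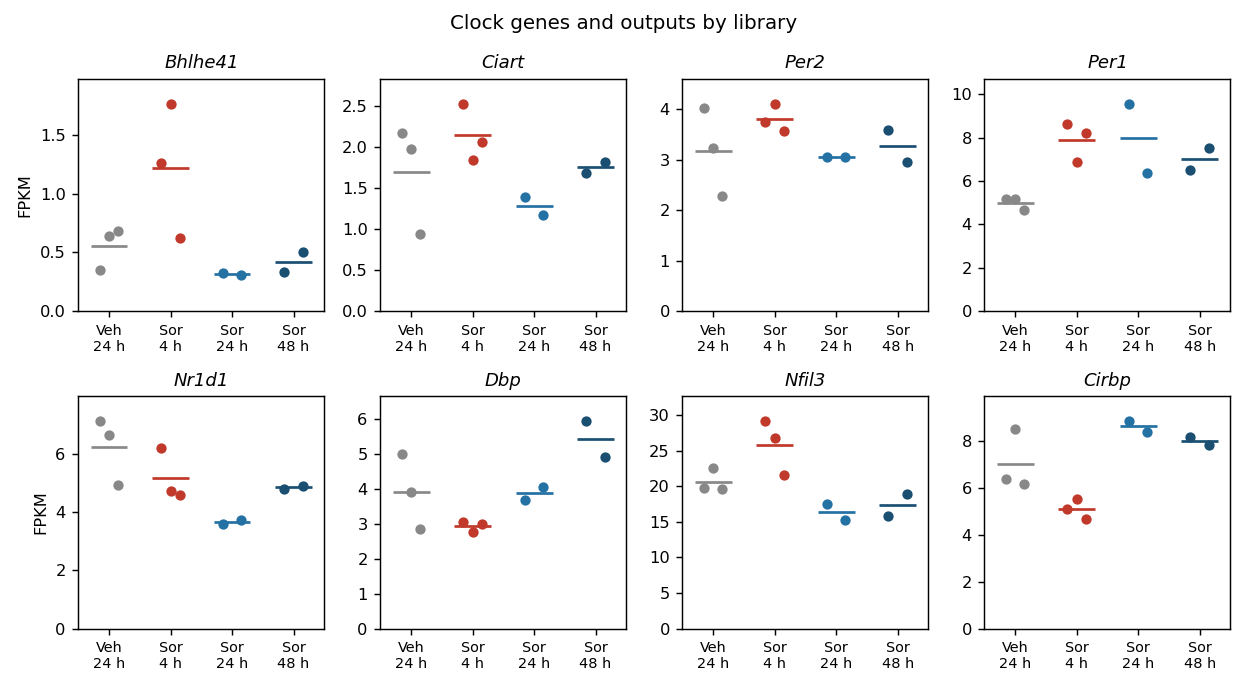
FPKM of 8 clock genes and outputs in each library (points) with the group mean (line), for vehicle at 24 h and sorafenib (Sor) at 4, 24 and 48 h. Bhlhe41 and Nfil3 lie higher and Dbp and Cirbp lower at 4 h than in all 4 late libraries, while Per1 and Nr1d1 overlap.

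Some genes of fasting and fatty acid oxidation stood lower at 4 h than later. Of 15 tested genes of gluconeogenesis and fasting, 5 were lower at 4 h with an unadjusted p under 0.05 and 1 was higher. Over all genes it was 7.37% and 9.91%. The median of the 15 was -0.17, and 7 of the 15 differences were above 0. Of 25 tested genes of fatty acid oxidation and other PPARA targets, 6 were lower and 0 higher, with a median of -0.26. The second count was 12 without the third 4 h library and 4 to 8 without any of the other 6 in turn. It was 10 without the 2 libraries high in albumin and 10 under quantile normalization. With the replicate number as a block it was 14, in a fit that also leaves the third 4 h library out of the difference. In the fasting list, 4 were higher and 5 lower without the first 48 h library, as without the 2 libraries high in albumin. With the spread taken from all 24 libraries, 0 of the oxidation genes and 1 of the fasting genes were lower. None passed the adjusted threshold.

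Igfbp1, an insulin-repressed binding protein of insulin-like growth factors, stood at 49.1, 47.5 and 38.6 FPKM at 4 h, 186 and 97.5 at 24 h and 106 and 79.9 at 48 h. The late libraries were all above the early ones (-1.29 ± 0.26 (SE), adjusted p = 0.192). The early libraries overlapped with vehicle, at 41.6, 56.8 and 29.2. Irs2, an insulin receptor substrate that fasting induces, stood at 7.503, 6.87 and 6.01 FPKM at 4 h, 14.4 and 9.61 at 24 h and 13.4 and 10.2 at 48 h (-0.71 ± 0.15 (SE), adjusted p = 0.192), again with vehicle, at 6.92, 4.47 and 6.05, near the early level. Creb3l3, the gene of a hepatic factor of the fasting response, stood at 54.96, 59.3 and 62.9 FPKM at 4 h, 90.1 and 76.6 at 24 h and 83.5 and 68.9 at 48 h and at 48.2, 46.95 and 30.8 in vehicle. Its 3 groups were in order, vehicle lowest, 4 h next and the late libraries highest, with no overlap between neighbours. The early to late difference was -0.42 ± 0.11 (SE), adjusted p = 0.1998.

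Ppara, the nuclear receptor that drives fatty acid oxidation in fasting, stood at 2.61, 2.18 and 1.83 FPKM at 4 h, 5.21 and 3.89 at 24 h and 4.75 and 3.18 at 48 h, without overlap (-0.70 ± 0.15 (SE), adjusted p = 0.192). Vehicle had 2.46, 0.998 and 0.987. Cpt1a, which admits fatty acids to mitochondria, stood at 48.7, 51.2 and 45.4 FPKM at 4 h, 58.6 and 59.8 at 24 h and 69.6 and 73.3 at 48 h (-0.42 ± 0.10 (SE), adjusted p = 0.1998). It was lower in all 3 early libraries, and the 48 h values were above those at 24 h. Hadha, a subunit of the mitochondrial trifunctional protein, stood at 31.98, 30.7 and 35.2 FPKM at 4 h, 47.4 and 42.2 at 24 h and 40.1 and 39.8 at 48 h (-0.37 ± 0.09 (SE), adjusted p = 0.1998). Against vehicle, the median of the oxidation list was 0.19 at 4 h and 0.43 late, and 1 and 12 of the 25 genes were above every vehicle library, where 4.21% and 6.31% of all genes were. The fasting list had medians of 0.30 and 0.27.

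**Figure D5:**
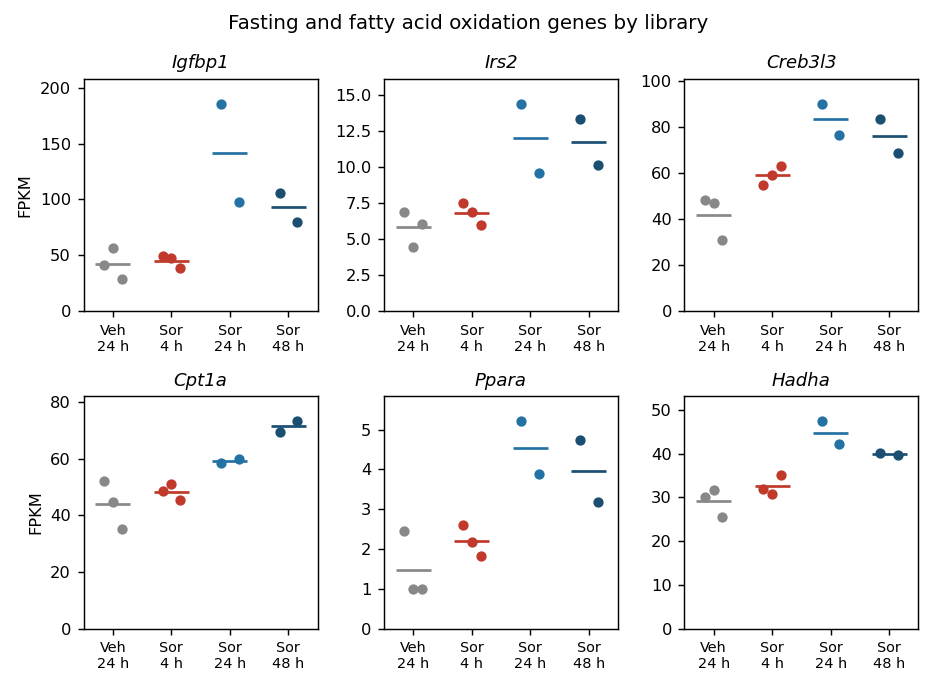
FPKM of 6 genes of fasting and fatty acid oxidation in each library (points) with the group mean (line), for vehicle at 24 h and sorafenib (Sor) at 4, 24 and 48 h. All 4 late libraries lie above the 3 early ones in each panel, and vehicle overlaps with the early libraries or lies below them.

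Growth genes leaned higher early than late by small amounts. Of 34 tested genes of ribosome biogenesis, many of them MYC targets, 12 were higher at 4 h with an unadjusted p under 0.05 and 0 lower. Over all genes it was 9.91% and 7.37%. The median of the 34 was 0.19. The count was 26 without the second 48 h library, where 13.4% of all genes were higher. It was 12 without the second 4 h library, 8 without the second 24 h library and 7 without the third 4 h library. Without the first 24 h or the first 48 h library it was 6. Without the first 4 h library it was 3, where 6.35% of all genes were higher. It was 1 without the 2 libraries high in albumin, where 6.42% were. Of 36 genes of S phase and DNA replication, 9 were higher and 0 lower, with a median of 0.18, and the count was 18 without the second 48 h library, 7 without the third 4 h library, 1 to 3 without any of the other 5 in turn and 2 without the 2 libraries high in albumin. Of the 35 genes of G2 and M phase, 1 was higher and 1 lower, with a median of 0.05, and 5 were higher without the second 48 h library, 4 without the second 4 h library, 0 or 1 without any of the others in turn, and 0 without the 2 libraries high in albumin. With the spread taken from all 24 libraries, 0 genes of these 3 lists had an unadjusted p under 0.05. Against vehicle, the medians at 4 h and late were -0.11 and -0.31 for ribosome biogenesis and 0.07 and -0.12 for S phase. For G2 and M phase both were -0.06. Of the ribosome biogenesis genes, 3 at 4 h and 9 late were below every vehicle library, and 0 were above. Over all 11770 genes, 514 and 783 were below. Mki67, which marks cycling cells, stood at 20.53, 21.5 and 18.1 FPKM at 4 h, 24.5 and 22.1 at 24 h and 23.7 and 23.5 at 48 h, lower early (-0.22 ± 0.08 (SE), adjusted p = 0.247). Myc, the mouse gene and not a measure of the human transgene, stood at 0.874, 0.9501 and 0.768 FPKM at 4 h, 0.827 and 1.23 at 24 h and 2.04 and 1.18 at 48 h and overlapped (-0.29 ± 0.17 (SE), adjusted p = 0.403).

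Genes of drug handling gave no single direction. Sorafenib is oxidised by CYP3A enzymes and glucuronidated in the liver. Over all genes, 9.91% were higher and 7.37% lower at 4 h with an unadjusted p under 0.05. Of 16 tested targets of the nuclear receptors CAR and PXR and drug carriers, 4 were higher and 3 lower. Without the first 48 h library 7 were higher and 1 lower, without the third 4 h or the second 48 h library 2 were higher and 4 lower, without the first or second 24 h library 2 were higher, without the first 4 h library 0 were lower, and without the 2 libraries high in albumin 6 were higher and 3 lower. Cyp2c29, a strongly CAR-responsive cytochrome, stood at 5.96, 6.896 and 27.3 FPKM at 4 h, 0.139 and 0.0449 at 24 h and 3.64 and 0.314 at 48 h (2.82 ± 0.64 (SE), adjusted p = 0.197). The early libraries were above the late ones, and the 2 libraries high in albumin were also the highest of their groups for this hepatocyte gene. Without both of them its adjusted p was 0.00554. Vehicle spread from 0.498 to 36.9 FPKM, a wider range than that of the 7 sorafenib libraries. Abcc2, the canalicular exporter MRP2, differed by -0.28 and Nr1i2, the gene of PXR, by -0.83 (adjusted p = 0.223 and 0.234).

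The other genes that the rule names, by the smallest p among genes of at least 5 FPKM without overlap, did not pass the threshold. Gstt1, a glutathione transferase, stood at 113, 102 and 130.4 FPKM at 4 h, 75.1 and 67.5 at 24 h and 57.4 and 65.3 at 48 h (0.79 ± 0.12 (SE), adjusted p = 0.135). Every early library exceeded every vehicle library too, the highest of which had 83.6 FPKM. Ifi30, a lysosomal thiol reductase of antigen processing, differed by 0.80, Rcn3, a chaperone of the secretory pathway, by 0.67, S100a10, the annexin A2 partner, by 0.60, Mvp, the major vault protein, by 0.59 and Ak6, an adenylate kinase, by 0.51. Their adjusted p lay between 0.113 and 0.135. Abat, which breaks down GABA and is abundant in liver, stood at 16.3, 14.2 and 15.8 FPKM at 4 h, 42.7 and 29.3 at 24 h and 35.1 and 24.7 at 48 h, lower early (-1.02 ± 0.17 (SE), adjusted p = 0.153). Of its vehicle libraries 2, at 20.2 and 17.1 FPKM, were below the late range, and the third, at 34.7, was within it. Also lower early, the differences were -1.58 for Llcfc1, -0.91 for Nipal1, -0.88 for Cyp4a12b, a cytochrome of fatty acid hydroxylation, -0.69 for Inf2, a formin, and -0.56 for Mgam, a maltase. Tapbp, which loads peptides on MHC class I, differed by -0.43, Susd1 by -0.48, Igdcc4 by -0.56 and Igf2bp3, an RNA-binding protein of fetal and tumour tissue, by -0.42.

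Set against vehicle, 4 h gave 2 calls among all genes (0.017%), Hmga1b and Kctd15, both lower, and the late libraries gave 0 (limma). At an unadjusted p under 0.05 the numbers were 748 (6.36%) for 4 h and 1978 (16.8%) for the late libraries. The late libraries gave 7 calls without the first vehicle library and 0 or 1 with any other left out. These comparisons share the 3 vehicle libraries, and vehicle was taken at 24 h alone, so for 4 h drug and hour of the day cannot be told apart there either.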

How the data were processed

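RNA-seq libraries of mouse liver tumours were taken as deposited. Per the submitters' processing notes the authors used STAR 2.5, HTSeq 0.6.1 and the mouse build mm9. The deposited values are FPKM per gene, and reads were not recounted. Per the labels' protocols, libraries were made with an Illumina-compatible NEBNext kit, and the strand setting of the counting is not given in the sources used here. The identifiers of a block of entries are shifted against the names, so names were used throughout. From 54532 entries, 27 whose name had become a number for a date and 102 that repeated a symbol were left out, and 53850 names matched the mouse gene name table. Groups came from sample titles, and columns were matched through the description codes.

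Depth was read from low FPKM values, of which 98.2 to 98.7% came out as whole reads (within 0.02) in 20 libraries. It describes counting error alone, since the protocols name no molecular identifiers. Pairs of libraries differed by a chi-square of 29.9 to 100.4 per gene, so none was counted as a duplicate.

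Values of log2(FPKM + 1) were fitted with limma 3.58.1 in R 4.3.3 (empirical Bayes with a trend, two-sided, Benjamini-Hochberg over all 11770 genes, threshold 0.05), with the 7 libraries for early against late and the vehicle libraries added for the comparisons with vehicle. A log2 difference with a pseudocount of 1 understates the change of low genes. The labels do not say which animal or tumour a library came from, so p measures the spread between libraries, which may be technical. The script was tested on simulated data.

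The comparison, its 47 gene lists and the tests were chosen with earlier results of these data known. Named genes were up to 12 in each direction, past the threshold first and then by smallest p, without overlap and with a mean of at least 5 FPKM in the higher group, leaving out unnamed models and pseudogenes. Up to 4 members of each list with the smallest p, the clock and ERK output genes and Myc, Afp, Alb and Mki67 were added. Genes with values outside this rule were chosen after their values were seen: Ldhb, Eda2r, Egr1, Hspa1a, Sesn1 and Hmga1, besides the calls Kctd15 and Gm3788. Transcript identity was found with BLAST 2.17.0 on GENCODE M21, whose build is newer than mm9. Alternatives were another pseudocount, filter, scaling, sample set or block, and each library left out. Some genes that the lists or the rule take are not reported here.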

Additional observations from a re-analysis of the deposited data

Results flagged for a closer look

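The 95 genes of the report were looked at for single libraries far from the rest of their group, which was possible in the 4 late libraries alone. This group joins 2 times, and chance marks about 1 in 20 groups. A gap to the nearest library, relative to the whole range, above Dixon's critical value was found for 12 genes. In 4 of them the second 48 h library stood apart. It had 1.42 FPKM of Hk1 against 0.725 to 0.777 in the others, 0.504 of Bhlhe41 against 0.311 to 0.329, 6.69 of Csf1r against 8.32 to 8.40 and 5.58 of Pdgfb against 5.07 to 5.16. In 5 genes it was the first 48 h library. It had 2966 FPKM of Alb against 1066 to 1362, 3.60 of Phlda1 against 0.836 to 1.08, 3.58 of Per2 against 2.95 to 3.05, 6.28 of Cry1 against 4.54 to 4.71 and 6.45 of Mvp against 7.65 to 7.86. In 3 genes it was the second 24 h library, with 6.25 FPKM of Hlf against 7.31 to 7.52, 7.25 of Tef against 8.99 to 9.10 and 12.6 of Inf2 against 10.2 to 10.4.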

How the results depend on the processing

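The 3 calls between 4 h and the later times became 1 with no filter on low values, 1 with 48 h alone as the later time, and 1 to 27 with each library left out in turn. Chosen after seeing the data were a fit of the 20 libraries with single-read steps, with 0 calls and 430 genes at an unadjusted p under 0.05, and the comparison without the 2 libraries high in albumin, with 13. Between 24 and 48 h the 0 calls became 1 with a pseudocount of 0.1 and 10 with no filter. Against vehicle, the 2 calls of 4 h became 5 with no filter, 0 in both fits of all 24 libraries (1 of them with the description code as a block) and 1 to 3 with a library left out, and the 0 calls of the late libraries became 1 with the code as a block and 0 to 7 with a library left out.

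Deviations of libraries with the same replicate number correlated at -0.42 to 0.15, and those with different numbers at -0.44 to 0.44. In groups of 2 libraries the deviations mirror each other, so these values cannot settle whether the numbers pair the samples. With the number as a replicate block, early against late gave 14 calls, 1 of them shared with the 3 above, and late against vehicle gave 1. Kctd15 and Gm3788 then had adjusted p of 0.0516 and 0.0568. Among 5036 values of single genes under the alternatives, 4943 kept their side of the threshold and, where not called, stayed within their spread. Another 45 moved (with a pseudocount of 0.1, Hk1 to 1.39 and Cyp2c29 to 4.45), 16 passed and 32 no longer passed. The sign differed from that of the main fit in 156 of the 5036, but in no called value.

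Hmga1b lost its call in the fits of all 24 (adjusted p = 0.792), of all 24 with codes (0.395) and of 20 libraries (0.978). With 3 and 4 libraries and few calls, the list counts at an unadjusted p are descriptions of these libraries. FPKM fixes each library's total, so a change of all genes together cannot be seen, and genes under 1 FPKM are limited by depth.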

Other observations

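Counts for gene groups not described above turned on single libraries. The shares over all genes, to be set beside every count in this section, were 9.91% higher and 7.37% lower. They too changed with the libraries left out, as given above. Of 22 tested genes of cholesterol synthesis, 0 had an unadjusted p under 0.05 in either direction (limma), but 7 were lower at 4 h without the third 4 h library and 5 without the 2 libraries high in albumin. Of 31 plasma proteins of hepatocytes, 1 was higher and 3 were lower, and the number lower was 14 without the third 4 h library, 6 without the second 48 h library, 0 to 2 without any of the others in turn and 11 without the 2 high in albumin. Of 27 genes of bile acid and amino acid metabolism, 1 was higher and 0 lower, with 10 lower without the third 4 h library, 5 lower without the second 48 h library and 5 higher without the first 48 h library. Without the 2 libraries high in albumin, 5 of these were higher and 8 lower. Of 25 acute phase genes, 2 were higher and 1 lower, with 9 higher without the first 48 h library, 4 lower without the third 4 h or the second 48 h library, and 5 higher and 4 lower without the 2 high in albumin.

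Of 22 interferon-stimulated genes, 1 was higher and 4 were lower, and 4 were higher without the second 48 h library, 3 without the third 4 h library, and 2 were lower without the first or second 4 h library. Of 20 NRF2 targets, 4 were higher and 2 lower, with 7 higher without the second 48 h library and 4 to 6 without any of the others in turn. Among 14 genes of the BCL2 family, 5 were higher and 1 lower, with 3 higher without the first 4 h or the first 48 h library. Without the 2 libraries high in albumin, the numbers higher and lower were 2 and 3 for interferon-stimulated genes, 5 and 3 for NRF2 targets and 4 and 1 for the BCL2 family. Of the 5 of this family, 3 (Bbc3, Bax and Pmaip1) are also on the list of p53 targets. The lower one, Bcl2l2, which protects cells from apoptosis, differed by -0.31 (adjusted p = 0.221), without overlap.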
